A study of Homo sapiens with 8 samples.

Results

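The comparison described here set untreated DU145-Esrrb cells against untreated DU145-pc3.1 cells. It used 4 of the 8 RNA-Seq libraries of the study, 2 for each pool of cells, chosen by their labels. DU145 is an established cell line from a human prostate cancer. DU145-Esrrb is a Zeocin-selected pool of DU145 cells that carry an Esrrb expression vector built on pcDNA3.1-zeo (+), and DU145-pc3.1 is the matching pool with the empty vector. Both pools were selected with Zeocin, so the controls share the plasmid backbone and the drug selection. Neither is a single clone. The study's methods describe 2 biological replicates of transfected cells for each construct, put together under one name. How the 2 libraries of each pool relate to these transfections is not clear from that. The p-values measure the spread between libraries within a group, estimated over all 8 libraries, and this spread may be partly technical. The other 4 libraries came from the same pools treated with 3 μM DY131, a synthetic agonist of the estrogen-related receptors beta and gamma. They entered the filter, the scaling and the estimate of spread. Otherwise they are used below to follow what was found in the untreated cells. The construct's species of origin and isoform are not given in the labels.

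Esrrb, the estrogen-related receptor beta, is an orphan nuclear receptor that binds DNA as a monomer at an extended half-site and regulates transcription without a known natural hormone. Its relatives are Esrra, which is expressed in most tissues and drives mitochondrial and oxidative genes, and Esrrg. In mouse embryonic stem cells Esrrb belongs to the network of factors that hold the pluripotent state. The genes that changed here include interferon-induced genes. These are switched on when type I interferon activates transcription factors that bind the interferon-stimulated response element in their promoters, and many of them also have a basal level in untreated cancer cells.

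Between 10325443 and 11551690 reads were counted on genes in the 4 untreated libraries, and between 7858743 and 10624183 in the DY131-treated ones. Of 23391 genes in the table, 13856 reached 1 cpm (1 count in 1000000) in 2 or more of the 8 libraries and were tested. The cells expressed epithelial keratins, which fits the labelled line, with KRT8 at 1064 and 1122 cpm in DU145-pc3.1 and at 1246 and 1248 cpm in DU145-Esrrb. The summed level of the 8 epithelial markers was 4129.5 and 4243.8 counts in 1000000 reads in DU145-pc3.1 and 4205.0 and 4182.7 in DU145-Esrrb. Of these 8 markers, 6 were tested and 2 had at most 3 counts in each untreated library. Of 10 fibroblast markers, 8 had at most 3 counts in each untreated library, as did 7 of 10 luminal prostate markers that include the androgen receptor and 5 of 10 leukocyte and endothelial markers.

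ESRRB itself, listed under NM_004452, had 3 and 0 counts in replicates 1 and 2 of DU145-pc3.1 and 104 and 99 counts in those of DU145-Esrrb. These were 0.286 and 0 cpm in the control libraries against 8.83 and 9.10 cpm. The 95% Wilson intervals of the DU145-Esrrb values were 7.28 to 10.7 and 7.48 to 11.1 cpm, and the limit that a count of 0 allows was 0.264 cpm in the second control library. Such intervals and limits cover counting error only. Scaled by effective library size, the ratio of the summed counts was 65.2, with an exact 95% counting interval of 22 to 319. The log2 fold change fitted by edgeR's quasi-likelihood test was 5.91 (SE 0.44, adjusted p = 1.03e-06), and it was 9.51 without DU145-pc3.1 replicate 1, where the remaining control library has 0 counts and the value depends on the prior count. ESRRG, the other receptor that DY131 activates, had 0 counts in all 4 untreated libraries. ESRRA was at 41.9 and 41.1 cpm in the control libraries and at 41.6 and 44.1 cpm in DU145-Esrrb, a log2 fold change of 0.05 (SE 0.08, adjusted p = 0.834). The ESRRB gene lies on chromosome 14 from 76310712 to 76501837 in GENCODE 29 (GRCh38), whereas the reads had been mapped to hg18. Per kilobase of transcript, ESRRB in DU145-Esrrb stood at 2.97 cpm. Of 13606 tested genes with an annotated length, 75.3% had a higher level per kilobase in these cells, where the median was 9.65 cpm.

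A gene was called when its adjusted p was under 0.05 and its absolute log2 fold change at least 1. By this rule 80 genes, or 0.577% of those tested, differed between the untreated pools. Of these, 25 were higher in DU145-Esrrb (0.18%) and 55 were lower (0.397%). In each of the 80 genes both DU145-Esrrb libraries lay on the same side of both control libraries. Among all tested genes, 3567 were higher and 3581 lower in both DU145-Esrrb libraries, so that separation alone is common here. The called genes were mostly of low abundance, with 36 of the 80 under a mean of 5 cpm in both pools. Only 3 of the 25 higher genes and 15 of the 55 lower ones reached 20 cpm in the pool with the higher level. The median log2 fold change was 1.44 for the higher and -1.5 for the lower genes, against 0.0012 over all tested genes. Without the fold change threshold, 233 genes were higher (1.68%) and 346 lower (2.5%) at an adjusted p under 0.05. At an unadjusted p under 0.05 there were 1057 higher genes (7.63%) and 1240 lower ones (8.95%), or 16.6% in all, and DESeq2 called 14 higher (0.101%) and 34 lower (0.245%). Of the 80 calls, 32 were lost under DESeq2, 45 when at least 1 of the 4 libraries was left out in turn, and 21 whichever of the 4 was left out. For 8 of the 80, among them CCR2, DSG3, DUOX2, RSAD2 and SAMD9L, only the untreated pool with the higher level brought the gene past the filter, so that their selection for testing favoured a difference.

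**Figure D1:**
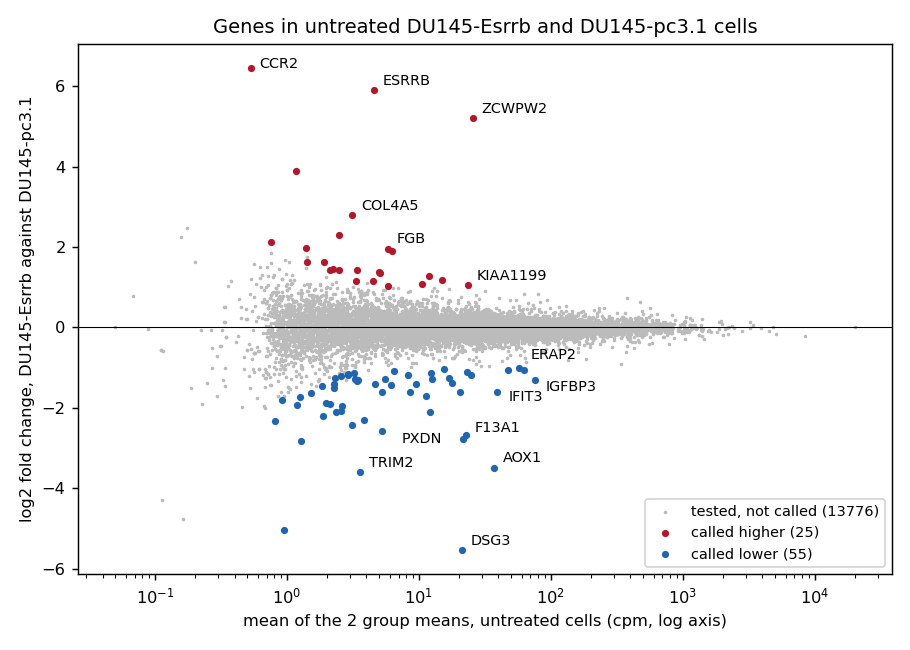
Log2 fold change of each tested gene in DU145-Esrrb against DU145-pc3.1 cells (vertical axis) by its mean level in cpm over both untreated pools (horizontal log axis, values under 0.05 drawn there). The 25 genes called higher are red, the 55 called lower are blue, and the fitted value of a gene with no counts in 1 pool, such as CCR2, depends on the prior count of the fit.

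Among the called genes, the one that gained most reads was ZCWPW2, which encodes a protein with zinc finger CW and PWWP domains, both of which read methylated histones. It was at 1.53 and 1.14 cpm in the DU145-pc3.1 libraries and at 52.0 and 47.5 cpm in those of DU145-Esrrb. The log2 fold change was 5.21 (SE 0.17, adjusted p = 5.84e-11), and the call held in each of the 15 alternatives that tested it. ZCWPW2 lies on chromosome 3 from 28349146 to 28538122, and 32.2% of its 50-base windows are repeated in another annotated gene. Its neighbour AZI2 starts 19 bases away on the opposite strand and had a log2 fold change of 0.48 (adjusted p = 0.00707). RBMS3, the next gene on the other side, had -0.20 (adjusted p = 0.532).

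CCR2, the receptor for the chemokine CCL2, had no counts in either control library and 12 counts in each DU145-Esrrb library. This is 1.02 and 1.10 cpm, with a mean 7.72 times the level of 3 counts over the control group. That ratio leaves out the counting error of the DU145-Esrrb libraries, whose 95% Wilson intervals began at 0.583 and 0.631 cpm. CCR2 passed the filter only through the DU145-Esrrb libraries, so its call and this ratio are tied to that filter. Its adjusted p was 0.00584, and the call was lost without either of the DU145-pc3.1 replicates and under DESeq2. ZC4H2, a zinc finger gene of neural development, had 3 counts in the control libraries together and 50 in DU145-Esrrb. Scaled by effective library size, that is a ratio of 16.1, with an exact 95% counting interval of 5.19 to 80.5 (adjusted p = 0.000885). Both genes are thus near the lower limit of what this depth can measure in the control cells.

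FGB, the beta chain of fibrinogen, stood at 2.39 and 2.38 cpm in DU145-pc3.1 and at 9.25 and 9.29 cpm in DU145-Esrrb. The replicates nearly coincided, and the log2 fold change was 1.96 (SE 0.20, adjusted p = 3.34e-05). TKTL1, a relative of the transketolase of the pentose phosphate pathway, rose from 3.05 and 2.20 cpm to 9.51 and 10.1 cpm (log2 fold change 1.90, SE 0.20, adjusted p = 4.78e-05). ZNF702P, a zinc finger pseudogene with 12.2% of its windows shared with related genes, rose by 2.30 on the log2 scale. PEG3, an imprinted zinc finger gene expressed from the paternal allele, rose by 1.99, from 0.382 and 0.704 cpm to 1.87 and 2.58 cpm, a call lost under DESeq2 and without 3 of the 4 libraries. CAND2, a cullin-associated protein, rose by 2.12 but did not exceed 1.56 cpm in any untreated library, and its call was lost without any 1 of the 4 libraries.

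**Figure D2:**
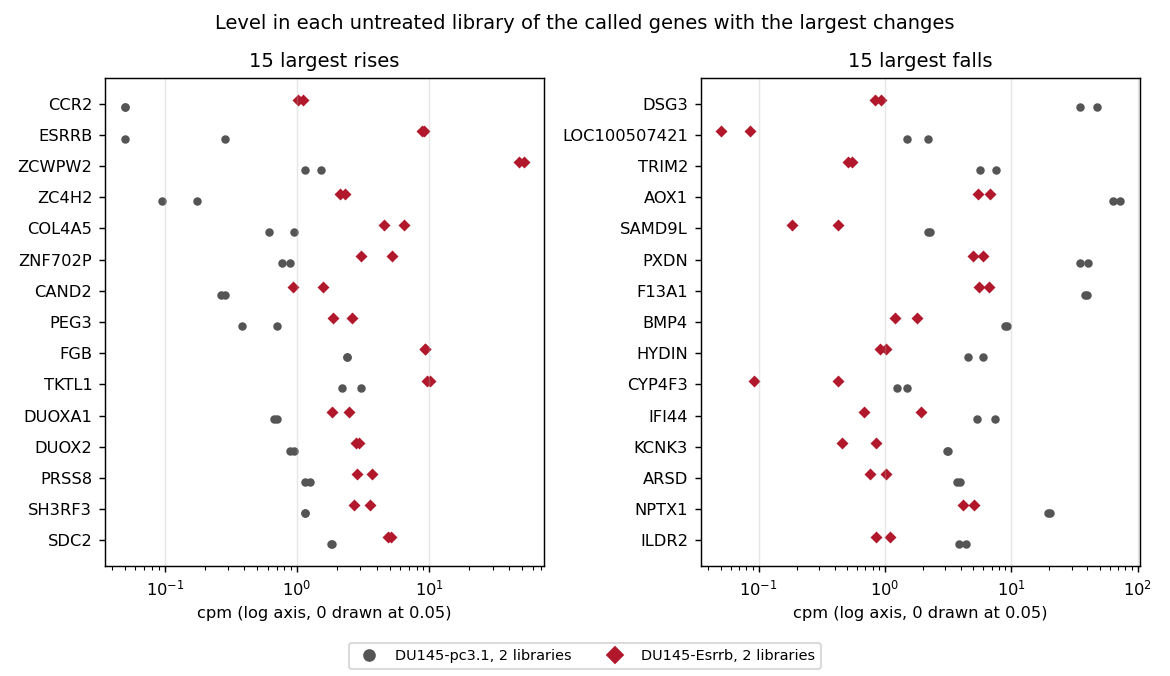
Level in cpm (log axis, 0 drawn at 0.05) of the 15 called genes with the largest rise (left) and the 15 with the largest fall (right) in each of the 4 untreated libraries. Grey circles are DU145-pc3.1 and red diamonds DU145-Esrrb, and in each gene the groups do not overlap.

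Further genes rose from below 20 cpm in the control. SEMA3F, a secreted semaphorin that repels axons and blood vessels, went from 7.44 and 6.60 cpm to 17.0 and 16.9 cpm (log2 fold change 1.27, SE 0.14, adjusted p = 8.36e-05). DDIT4L, an inhibitor of mTORC1 signalling, went from 10.8 and 7.57 cpm to 24.1 and 17.4 cpm (1.19, SE 0.20, adjusted p = 0.00278). BST1, a cell surface enzyme also known as CD157, rose by 1.08 and ARHGAP24, which inactivates Rac, by 1.39. PRSS8, SH3RF3, CDHR1, LOC441454 and PPFIBP2 rose by between 1.04 and 1.44 on the log2 scale, and each of these 5 calls was lost under DESeq2 and without at least 3 of the 4 libraries. The calls of DDIT4L and ARHGAP24 were lost without DU145-pc3.1 replicate 2 or DU145-Esrrb replicate 1, and that of BST1 without DU145-pc3.1 replicate 2. PRSS8 encodes the epithelial serine protease prostasin.

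The largest fall was that of DSG3, a cadherin of the desmosome that joins neighbouring epithelial cells. It was at 34.9 and 48.0 cpm in the DU145-pc3.1 libraries and at 0.934 and 0.828 cpm in those of DU145-Esrrb. The log2 fold change was -5.54 (SE 0.25, adjusted p = 2.32e-09), and over the alternatives it ranged from -5.74 to -5.29. DSG3 lies on chromosome 18. AOX1, the aldehyde oxidase of the cytosol, fell from 64.2 and 72.5 cpm to 5.43 and 6.81 cpm (log2 fold change -3.48, SE 0.17, adjusted p = 4.53e-09). In the control cells AOX1 was thus among the more abundant of the called genes, with 13.5 cpm per kilobase against 1.21 in DU145-Esrrb.

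PXDN and F13A1 also fell, with the pools far apart and the replicates close. PXDN, the peroxidase that crosslinks type IV collagen in basement membranes, fell from 40.8 and 35.0 cpm to 5.01 and 5.98 cpm (log2 fold change -2.79, SE 0.14, adjusted p = 6.04e-09). F13A1, the A chain of the coagulation factor that crosslinks fibrin, fell from 39.5 and 38.7 cpm to 6.62 and 5.52 cpm (-2.68, SE 0.13, adjusted p = 5.62e-09). BMP4, a secreted ligand of the bone morphogenetic protein receptors, fell from 9.26 and 8.89 cpm to 1.78 and 1.20 cpm (-2.59, SE 0.26, adjusted p = 3.34e-05). TRIM2, an E3 ubiquitin ligase, fell by 3.60, from 7.54 and 5.64 cpm to 0.509 and 0.552 cpm. LOC100507421, which GENCODE annotates as TMEM178B, had 40 counts in the control libraries together and 1 count in DU145-Esrrb. Scaled by effective library size, the ratio was 41.5, with an exact 95% counting interval of 7.03 to 1680.

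IGFBP3, which binds insulin-like growth factors outside the cell, had the highest level of the called genes. It fell from 105.7 and 108.4 cpm to 42.4 and 44.1 cpm (log2 fold change -1.31, SE 0.07, adjusted p = 6.04e-09). NPTX1, a secreted neuronal pentraxin, fell from 19.4 and 20.3 cpm to 4.16 and 5.06 cpm (-2.11, SE 0.20, adjusted p = 1.57e-05). SPNS2, the transporter that exports sphingosine 1-phosphate, fell from 16.6 and 17.8 cpm to 5.35 and 5.24 cpm (-1.70, SE 0.14, adjusted p = 3.13e-06). TAGLN, the actin-binding protein transgelin, fell from 35.4 and 33.5 cpm to 16.3 and 14.1 cpm (-1.18, SE 0.18, adjusted p = 0.00154). TAGLN shares 27.8% of its windows with PCSK7, which lies on the opposite strand, and how the authors' program used strand is not given in the sources used here. HYDIN (-2.43) shares 61.2% of its windows, mostly with HYDIN2, a copy annotated as a pseudogene on chromosome 1, and how reads that fit both were counted is not given either. WDR52 (-1.5), annotated as CFAP44, shares 34.8% with an overlapping gene model on its own strand and with its antisense gene, and its call was lost under DESeq2 and without any 1 of the 4 libraries. Both falls are uncertain for these reasons.

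The most numerous group among the called genes was that of the interferon-induced genes. Of 52 genes on the list 44 were tested, and 13 fell by the call rule while 0 rose, where 0.397% of all tested genes fell and 0.18% rose. At an adjusted p under 0.05 without the fold threshold, 24 fell and 1 rose (2.5% and 1.68% of all genes). At an unadjusted p under 0.05, 35 were lower and 1 higher, against 8.95% and 7.63% of all genes. DESeq2 called 8 lower and 0 higher. These 44 genes had a median log2 fold change of -0.82, against 0.0012 over all tested genes, and 41 of them were below 0. Summed over the list, the level was 1356.8 and 1182.3 counts in 1000000 reads in the control libraries and 930.9 and 880.7 in DU145-Esrrb, without overlap. The control replicates differed too, since 38 of the 44 genes were higher in replicate 1 of DU145-pc3.1 than in replicate 2. The count of 13 became 6 without that replicate 1 and 8 without DU145-Esrrb replicate 2.

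IFIT3 and IFIT2, RNA-binding proteins that block viral translation, lie next to each other on chromosome 10. IFIT3 fell from 65.9 and 52.2 cpm to 19.9 and 19.1 cpm (log2 fold change -1.60, SE 0.15, adjusted p = 1.57e-05). IFIT2 fell from 34.5 and 28.7 cpm to 15.5 and 13.6 cpm (-1.11, SE 0.17, adjusted p = 0.0012). IFIT1, the next gene on that strand, was at -0.90 (adjusted p = 0.00543) and so did not reach the fold threshold. A second adjacent pair was that of SAMD9 and SAMD9L on chromosome 7, both antiviral and growth-restricting proteins. SAMD9 fell from 17.7 and 17.9 cpm to 7.39 and 7.17 cpm (-1.29, SE 0.16, adjusted p = 0.000273), and SAMD9L, at 2.29 and 2.20 cpm in the control, fell by 2.81, a call lost under DESeq2 and without any 1 of the 4 libraries.

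Among sensors and effectors, OASL, a relative of the oligoadenylate synthetases, fell from 35.0 and 26.2 cpm to 10.7 and 9.47 cpm (-1.60, SE 0.15, adjusted p = 1.57e-05). DDX60, a helicase that aids RNA sensing, fell from 15.1 and 10.9 cpm to 4.58 and 3.86 cpm (-1.61, SE 0.21, adjusted p = 0.000288). The GTPase MX1, which traps viral nucleocapsids, fell from 25.5 and 22.2 cpm to 9.34 and 10.8 cpm (-1.25, SE 0.21, adjusted p = 0.00278). IFI44 fell by 2.30, RSAD2 (viperin) by 1.72, IFI6 by 1.38, the GTPase GBP1 by 1.31, RARRES3 by 1.07 and LGALS3BP, a secreted galectin ligand, by 1.05. Under DESeq2 the calls of RSAD2, IFI6, GBP1 and RARRES3 were lost, and those of RSAD2, IFI6, GBP1, RARRES3, LGALS3BP, MX1 and IFIT2 were lost without DU145-pc3.1 replicate 1. Leaving out DU145-Esrrb replicate 1 or 2 put IFI44 at -1.72 and -3.21. ISG15, the ubiquitin-like modifier, was at -0.95 (adjusted p = 0.00162) and OAS3 at -0.75 (adjusted p = 0.00387).

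The transcription factors of the pathway differed among themselves. STAT2 was at 0.04 (adjusted p = 0.897), with overlapping libraries, and IRF9 at -0.36 (adjusted p = 0.165). IRF7 was at -0.89 (adjusted p = 0.0236), and IRF1 fell from 28.8 and 31.4 cpm to 17.7 and 17.1 cpm (-0.79, adjusted p = 0.000283). IFITM2, one of the membrane proteins that restrict virus entry, rose against the direction of the list, from 50.6 and 39.0 cpm to 80.1 and 78.6 cpm (0.83, SE 0.11, adjusted p = 0.000318). Its neighbour in sequence and genome IFITM3 fell from 62.5 and 46.6 cpm to 33.5 and 27.1 cpm (-0.84, SE 0.16, adjusted p = 0.00783). The coding sequences of the IFITM genes are close to each other, and how reads that fit both were counted is not given in the sources used here.

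**Figure D3:**
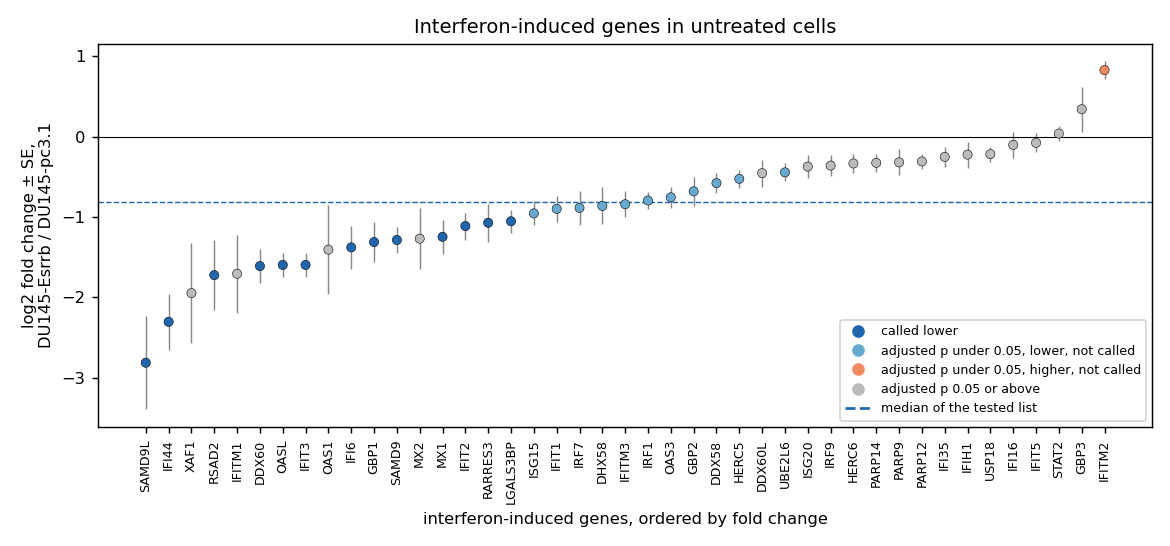
Log2 fold change with its SE in DU145-Esrrb against DU145-pc3.1 cells for 43 of the 44 tested interferon-induced genes, ordered by fold change, with the median of -0.82 over all 44 dashed. The 13 called genes are dark blue, and IFITM2 is the 1 gene with an adjusted p under 0.05 above 0.

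Promoter stretches of 6 of these genes are shown because they hold the core of the interferon-stimulated response element. In the 250 bases before the RefSeq start site (GRCh38.p14), the core GAAANNGAAA on either strand was found in 1061 of 35116 promoters, or 3.02%. RefSeq promoters were matched for 58 of the 80 called genes. The core was in 9 of 10 such promoters among the called interferon-induced genes, SAMD9L being the one without it, in 2 of the other 29 called lower genes and in 0 of 19 called higher genes. Among the tested members of the list that were not called, it was in 5 of 8 promoters of genes that fell at an adjusted p under 0.05 and in 8 of the other 16. A match is a description of the letters and not evidence of binding. In the stretches below, written in the direction of transcription, capitals mark the core or its reverse complement.
IFIT3 (chr10:89332415-89332464, + strand): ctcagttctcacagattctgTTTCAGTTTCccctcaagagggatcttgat
IFI44 (chr1:78649751-78649800, + strand): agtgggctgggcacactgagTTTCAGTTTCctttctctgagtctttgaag
RSAD2 (chr2:6877612-6877661, + strand): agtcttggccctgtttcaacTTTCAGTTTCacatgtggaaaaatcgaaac
GBP1 (chr1:89065306-89065355, - strand): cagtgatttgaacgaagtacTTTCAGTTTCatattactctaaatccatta
SAMD9 (chr7:93118086-93118135, - strand): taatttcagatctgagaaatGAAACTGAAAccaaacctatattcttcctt
DDX60 (chr4:168318776-168318860, - strand): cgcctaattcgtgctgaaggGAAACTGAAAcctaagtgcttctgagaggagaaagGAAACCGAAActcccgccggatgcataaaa

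The response element of the estrogen-related receptors, TCAAGGTCA on either strand, was in 0.319% of all promoters and in 0 of the 58 matched ones. The shorter AAGGTCA, which is contained in it, was in 3.44% of all promoters. It was found in 1 of 19 promoters of higher genes, that of ARHGAP24, and in 1 of 39 of lower genes, that of MX1, shown here with the match in capitals. Sites farther from the start were not searched.
ARHGAP24 (chr4:85827705-85827751, + strand): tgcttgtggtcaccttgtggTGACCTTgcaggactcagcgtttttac
MX1 (chr21:41431807-41431853, + strand): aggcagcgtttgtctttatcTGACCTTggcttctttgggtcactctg

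In antigen presentation and complement, 2 of 20 tested genes fell by the call rule of edgeR's test and 0 rose, against 0.397% and 0.18% of all genes, and DESeq2 gave the same counts. At an unadjusted p under 0.05, 8 were lower and 0 higher (8.95% and 7.63% of all genes), and the median was -0.30. C3, the central complement protein, went from 10.9 and 7.04 cpm to 3.73 and 2.85 cpm (-1.43, SE 0.28, adjusted p = 0.00737). ERAP2, which trims peptides for MHC class I, went from 86.1 and 82.3 cpm to 40.4 and 40.8 cpm (-1.05, SE 0.09, adjusted p = 6.88e-06). A further 3 members passed the adjusted p alone: HLA-B at -0.81, HLA-C at -0.50 and ERAP1 at -0.58. The call of C3 was lost without 3 of the 4 libraries. Of 22 tested cytokines, chemokines and receptors, CCR2 rose and CXCR4, the receptor of CXCL12, fell by the call rule of edgeR's test (0.18% and 0.397% of all genes). DESeq2 called 0 in either direction. At an unadjusted p under 0.05, 5 were higher and 2 lower (7.63% and 8.95% of all genes). CXCR4 went from 5.44 and 4.31 cpm to 2.72 and 1.10 cpm (-1.32, SE 0.31, adjusted p = 0.0254). Its call was lost in 6 of 15 alternatives, and the log2 fold change was -2.13 without DU145-Esrrb replicate 1 and -0.84 without replicate 2 of that pool.

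Genes of the basement membrane and matrix moved in both directions. Of 31 tested members, 4 rose and 1 fell by the call rule, against 0.18% and 0.397% of all genes. At an adjusted p under 0.05 without the fold threshold 9 rose and 5 fell (1.68% and 2.5% of all genes), with a median of 0.13. DESeq2 called 3 higher and 1 lower. COL4A5, a chain of type IV collagen, rose from 0.954 and 0.616 cpm to 6.37 and 4.51 cpm (2.79, SE 0.36, adjusted p = 0.000318). KIAA1199, which degrades hyaluronan, rose from 14.9 and 15.5 cpm to 32.3 and 30.8 cpm (1.05, SE 0.16, adjusted p = 0.00119). The proteoglycan SDC2 and the matricellular protein SMOC1 rose by 1.44 and 1.15, the call of SMOC1 being lost under DESeq2 and without any 1 of the 4 libraries, while the called fall was that of PXDN. Smaller rises included COL4A1 (0.38), LAMB1 (0.39), the perlecan gene HSPG2 (0.40) and NID1 (0.47), which encode basement membrane proteins. Smaller falls included that of LAMB3 (-0.37), a chain of an epithelial laminin. Outside the list, the called hyaluronan synthase gene HAS2 fell from 3.24 and 2.99 cpm to 1.27 and 0.368 cpm (-1.88, adjusted p = 0.0163). Its call was lost under DESeq2 and without 3 of the 4 libraries, and the log2 fold change was -3.04 without DU145-Esrrb replicate 1 and -1.28 without replicate 2 of that pool.

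Of 12 tested desmosome genes, DSG3 was the only one called, where 0.577% of all genes were. JUP, the plakoglobin that links desmosomal cadherins to the plaque, went from 111 and 106 cpm to 74.4 and 68.1 cpm (-0.60, SE 0.08, adjusted p = 0.000318). The other 10 did not pass the adjusted p, and the median of the list was -0.09. Among 23 tested regulators and markers of the epithelial-mesenchymal transition, PRSS8 rose and TRIM2 fell by the call rule (0.18% and 0.397% of all genes), and DESeq2 called TRIM2 alone. Of the list 19 were below 0, with a median of -0.17, and at an unadjusted p under 0.05 there were 8 lower and 2 higher members (8.95% and 7.63% of all genes). CDH1, the E-cadherin of adherens junctions, went from 166 and 157 cpm to 114 and 107 cpm (-0.54, adjusted p = 0.0114). The tight junction genes CLDN1 and CLDN4 were at -0.62 (adjusted p = 0.000318) and -0.57 (adjusted p = 0.0357).

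In BMP and TGF-beta signalling, BMP4 was the only called gene of 25 tested, where 0.577% of all genes were called. ID2, a target of BMP signalling, went from 22.5 and 24.0 cpm to 11.7 and 16 cpm (-0.75, adjusted p = 0.00339). ID1 and ID3, targets of the same signal, were at 0.15 (adjusted p = 0.291) and 0.006 (adjusted p = 0.984). TGFB1 went from 90.3 and 91.5 cpm to 113 and 119 cpm (0.35, SE 0.08, adjusted p = 0.0155). Of 26 Notch and Wnt genes tested, 0 were called by edgeR's test or DESeq2. At an unadjusted p under 0.05, 5 were higher and 3 lower (7.63% and 8.95% of all genes). HES1 at -0.98 (adjusted p = 0.011) and the secreted Wnt antagonist DKK3 at 0.80 (adjusted p = 0.000174) were past the adjusted p. Among 28 tested HOX genes, which set position along the body axis, 0 were called by edgeR's test or DESeq2, 6 were higher and 0 lower at an unadjusted p under 0.05, where 7.63% and 8.95% of all genes were, and the median was 0.12. HOXB8 went from 9.64 and 7.75 cpm to 15.8 and 18.5 cpm (0.98, SE 0.14, adjusted p = 0.000812), and HOXB9 was at 0.48 (adjusted p = 0.0159). Leaving out DU145-pc3.1 replicate 1 or DU145-Esrrb replicate 1 put HOXB8 past the threshold at 1.14 and 1.09.

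The next lists are tied to Esrrb by its known roles or to growth. Of 36 tested metabolic targets of the estrogen-related receptors, 0 were called by edgeR's test or DESeq2, which with 0.577% of all genes called says little about the list. At an unadjusted p under 0.05, 2 were higher and 0 lower (7.63% and 8.95% of all genes), and 1 passed the adjusted p, COX6B2 at 0.99 (adjusted p = 0.011), a subunit of cytochrome c oxidase of the testis. The median of the list was -0.02. Of 10 tested pluripotency factors 0 were called by edgeR's test or DESeq2. At an unadjusted p under 0.05, 0 were higher and 2 lower (7.63% and 8.95% of all genes). KLF4 was the only one past the adjusted p, at which 2.5% of all genes were lower and 1.68% higher. It went from 17.1 and 14.8 cpm to 9.25 and 9.56 cpm (-0.76, adjusted p = 0.00445). Of 37 tested cell cycle genes 0 were called by edgeR's test or DESeq2, and 4 were higher and 4 lower at an unadjusted p under 0.05, which 16.6% of all genes reached, with log2 fold changes between -0.32 and 0.19. CDKN1A, the p21 inhibitor of cyclin-dependent kinases, was at 63.7 and 63.3 cpm in the control and at 56.1 and 51.2 cpm in DU145-Esrrb (-0.24, adjusted p = 0.175).

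Axon guidance and neuronal genes gave 8 calls among 31 tested, 1 higher and 7 lower, with a median of 0.02, where 0.18% and 0.397% of all genes were called. DESeq2 called 1 higher and 3 lower. SEMA3F was the higher one. Besides NPTX1, the lower ones were the neurofilament genes NEFL (-1.61) and INA (-1.17), the netrin receptor UNC5A (-1.28), the protocadherin PCDHB15 (-1.41), SULT4A1 (-1.21) and the adhesion protein AMIGO2. AMIGO2 had the highest level of these, at 75.3 and 77.0 cpm in the control and 37.3 and 38.6 cpm in DU145-Esrrb (-1.0, adjusted p = 0.000594). Its call sat at the fold threshold and was lost in 3 of 15 alternatives. The calls of UNC5A, PCDHB15 and SULT4A1 were lost under DESeq2 and without any 1 of the 4 libraries, that of INA under DESeq2 and without 3 of them, and that of NEFL without 2. Without DU145-Esrrb replicate 1 or 2, SULT4A1 was at -1.69 and -0.87.

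Of 20 tested oxidase, pyrimidine and pentose phosphate genes, 4 rose and 2 fell by the call rule, against 0.18% and 0.397% of all genes, and DESeq2 called 2 higher and 1 lower. The dual oxidases DUOX1 and DUOX2, which make hydrogen peroxide at the cell surface, and the maturation factor DUOXA1 lie side by side on chromosome 15. DUOX1 went from 2.77 and 2.91 cpm to 8.40 and 6.07 cpm, DUOX2 from 0.954 and 0.880 to 2.80 and 2.94 cpm, and DUOXA1 from 0.668 and 0.704 to 2.46 and 1.84 cpm. The log2 fold changes were 1.35, 1.63 and 1.64, with adjusted p values of 0.00451, 0.00937 and 0.045. DUOX1 and DUOXA1 overlap at their starts on opposite strands, and DUOX1 and DUOX2 share 7.91% and 7.15% of their windows with each other. Besides AOX1, the called fall was that of DPYD, the enzyme that starts pyrimidine breakdown (-1.18). The calls of DUOX2, DUOXA1 and DPYD were lost under DESeq2 and without any 1 of the 4 libraries, and that of DUOX1 without 3 of them. QPRT, which makes a precursor of NAD from quinolinate, fell from 4.29 and 4.05 cpm to 1.27 and 0.828 cpm (-1.97, adjusted p = 0.00198). QPRT and PCDHB15 share 24.9% and 19.5% of their windows with other annotated genes, and ARHGAP24 shares 20.7% with MAPK10.

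Of 21 tested stress and apoptosis genes, DDIT4L rose and BMF fell by the call rule, against 0.18% and 0.397% of all genes, and DESeq2 called DDIT4L alone. BMF, a pro-apoptotic relative of BCL2, fell by 1.14, with values of 21.1 and 13.3 cpm in the control and 10.4 and 4.97 cpm in DU145-Esrrb that were wide apart within each pool. Its call was lost under DESeq2 and without DU145-pc3.1 replicate 1 (-0.78) or DU145-Esrrb replicate 2 (-0.72). Of 21 NRF2 targets 0 were called by edgeR's test or DESeq2, and 2 were higher and 8 lower at an unadjusted p under 0.05 (7.63% and 8.95% of all genes), with HMOX1, which degrades heme, at -0.67 (adjusted p = 0.000174). Of 23 targets of SRF and YAP, TAGLN and NEBL fell and 0 rose by the call rule of edgeR's test, as under DESeq2, while at an unadjusted p under 0.05 there were 6 lower and 2 higher members (8.95% and 7.63% of all genes). In this list CTGF and ANKRD1, both known YAP targets, were at -0.76 (adjusted p = 0.0113) and 0.73 (adjusted p = 8.36e-05).

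Genes of chromosome 5 were lower in DU145-Esrrb, mainly those from 50 Mb on. The median log2 fold change of its 622 tested genes was -0.23, and 532 of them (85.5%) were below 0, against a median of 0.01 and 47.9% for 12984 genes of the other chromosomes. At an adjusted p under 0.05 without the fold threshold, 137 genes of chromosome 5 (22%) were lower and 0 higher by edgeR's test, and 73 and 0 by DESeq2, while elsewhere 1.59% were lower and 1.79% higher. At an unadjusted p under 0.05, 304 genes of chromosome 5 were lower and 5 higher, against 925 lower and 1041 higher among the 12984 genes elsewhere. Chromosome 5 thus held 137 of the 346 lower genes. Relative to the other genes, the median of chromosome 5 genes in replicates 1 and 2 was -0.22 and -0.24 in DU145-Esrrb. No other chromosome had a median below -0.062 or above 0.125 in any untreated library.

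The shift was seen over most of the chromosome's length. In 14 bins of 10 Mb from 50 Mb on (GENCODE 29, GRCh38) the median lay between -0.29 and -0.15, and in the 4 bins below 50 Mb with at least 12 tested genes between -0.15 and -0.02. The range over 264 bins of other chromosomes was -0.14 to 0.15. From 50 Mb on 394 of 523 genes (75.3%) were lower in both DU145-Esrrb libraries, against 23.8% on the other chromosomes. The median was -0.26 from 50 Mb on and -0.10 below it, and 133 of 523 and 4 of 99 genes were lower at an adjusted p under 0.05.

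Among the chromosome 5 genes are abundant ones, named here after their values were seen. TGFBI, a secreted matrix protein, went from 454 and 437 cpm to 236 and 240 cpm (-0.90, SE 0.06, adjusted p = 1.94e-07). PLK2, a kinase of the polo family, went from 163 and 181 cpm to 94.3 and 103 cpm (-0.80, SE 0.07, adjusted p = 5.74e-06). The ribosomal protein genes RPS14 and RPS23 went from 431 and 438 to 312 and 317 cpm, and from 617 and 647 to 472 and 476 cpm (-0.47 and -0.41). GNB2L1, which encodes the ribosomal scaffold RACK1, was at -0.41 (adjusted p = 0.000324). The secreted hormone STC2 was at -0.79 (adjusted p = 9.92e-06) and the autophagy receptor SQSTM1 at -0.50 (adjusted p = 0.000168).

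The shift touches several results given above. IRF1 and ERAP1 lie on chromosome 5, and so do 5 called genes, all lower: ERAP2, PCDHB15, UNC5A, the protease-activated receptor F2RL2 and SSBP2, which binds single-stranded DNA. With each gene taken relative to the median of its chromosome, 71 genes were called, 70 of them among the 80. On other chromosomes KIAA1199, then at 0.998, CAND2, CYP4F3, DUOXA1 and SHC2 lost the call. None of the 5 called on chromosome 5 remained. ERAP2 was then at -0.83, under the fold threshold, with an adjusted p of 8.46e-05, and it lost its call in no other alternative. The other 4 stayed past the fold threshold, with PCDHB15 at -1.18, UNC5A at -1.05, F2RL2 at -1.24 and SSBP2 at -1.03, and missed the adjusted p, which lay between 0.0576 and 0.122. The calls of these 4 were also lost under DESeq2 and without any 1 of the 4 libraries. The interferon count stayed at 13. The cause of the shift was not tested.

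**Figure D4:**
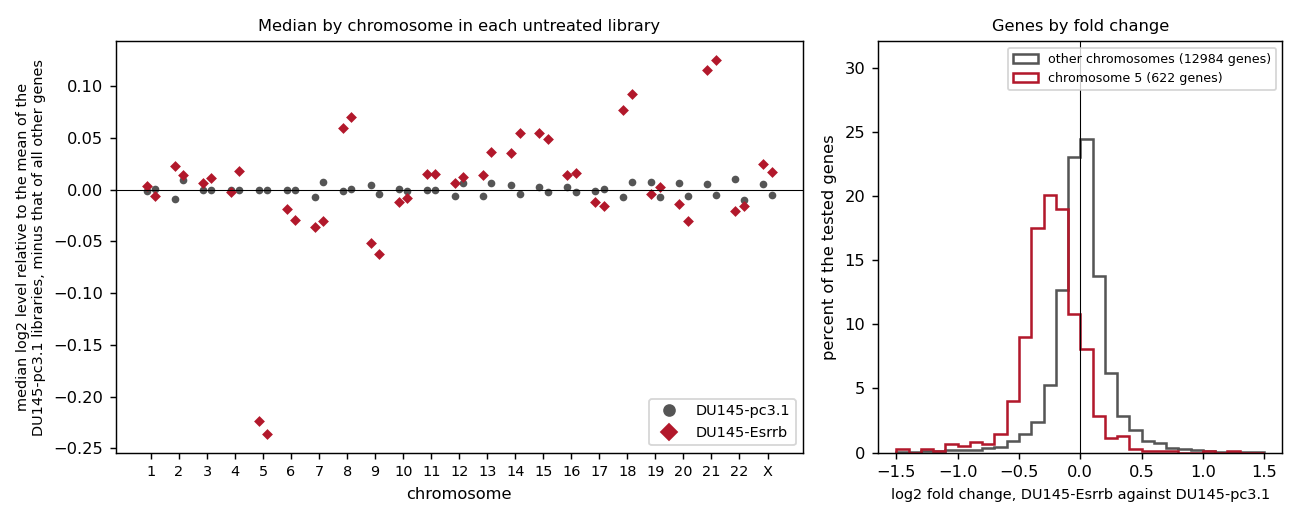
Left, median log2 level of the genes of each chromosome relative to the mean of the DU145-pc3.1 libraries, minus that of all other genes, in each untreated library. Right, tested genes by log2 fold change in bins of 0.1 between -1.5 and 1.5, as a percent of 622 genes on chromosome 5 and of 12984 on others, with the chromosome 5 genes shifted to the left.

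The same pools treated with DY131 gave a second pair of groups. It shares no library with the untreated pair, but 1 model was fitted to all 8 libraries. Between the treated groups 298 genes (2.15%) were higher and 839 (6.06%) lower in DU145-Esrrb. Of the 55 genes lower in untreated DU145-Esrrb, 53 had a negative log2 fold change in treated cells and 34 (61.8%) were called lower, with a median of -1.29. Of the 25 higher genes, 16 had a positive value, 8 (32.0%) were called higher and 3 were called lower, with a median of 0.24. The treated pair differed in another respect. Across 13606 genes, the share of 50-base windows that cross an exon junction had a Spearman correlation of -0.476 with the log2 fold change in treated cells and of -0.038 in untreated cells. It is given as a description over genes that share libraries, and its part in the treated values was not tested.

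ESRRB was at 13.7 and 16.2 cpm in treated DU145-Esrrb and at 0 and 0.0992 cpm in treated controls. ZCWPW2 was at 22.2 and 25.0 cpm against 1.5 and 0.892 cpm (4.28, adjusted p = 3.74e-10). FGB and PEG3 differed more than in untreated cells, with FGB at 18.4 and 17.2 cpm against 1.21 and 0.694 cpm (4.19, adjusted p = 1.39e-09). Of the 44 interferon-induced genes, 21 were called lower and 0 higher by edgeR's test, against 6.06% and 2.15% of all genes in this pair, with a list median of -0.97. The treated control libraries lay apart from each other, with IFI6 at 13.8 and 31.2 cpm and MX1 at 15.4 and 27.8 cpm. Over all genes the chi-square of replicate counts per degree of freedom was 7.1 in that group, against 1.29 to 2.6 in the other 3, and its part in these values was not tested. IFIT3 was at 49.4 and 71.7 cpm in treated controls and at 16.9 and 17.0 cpm in treated DU145-Esrrb (-1.83, adjusted p = 3.92e-07). The median of chromosome 5 was -0.39 in treated cells, with -0.43 from 50 Mb on and 0.05 below it.

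Several of the largest untreated differences did not recur under DY131. For 24 of the 80 genes the difference itself differed between untreated and treated cells by edgeR's interaction term (adjusted p under 0.05 and a size of at least 1 on the log2 scale), as did 6.28% of all tested genes. The 80 were chosen for a large untreated difference, which by itself favours such an interaction, so the shares are not alike. DSG3 was at 1.03 and 0.397 cpm in treated controls and at 0.652 and 0.565 cpm in treated DU145-Esrrb (-0.25, adjusted p = 0.781). AOX1 was at 3.74 and 7.44 cpm against 4.69 and 4.18 cpm (-0.33, adjusted p = 0.359). In both genes it was the control level that was low under DY131, near that of untreated DU145-Esrrb. F13A1 was at 16.4 and 20.2 cpm against 16.2 and 17.2 cpm (-0.13, adjusted p = 0.438), between the levels of the untreated pools. COL4A5 lay in the opposite order, at 3.83 and 2.48 cpm in treated controls and 1.17 and 0.565 cpm in treated DU145-Esrrb (-1.89, adjusted p = 0.00196). CDHR1 and LOC441454 were also called in the opposite direction, at -1.33 and -1.75. HOXB8 and HOXB9 had larger values than in untreated cells, at 2.50 and 1.81.

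**Figure D5:**
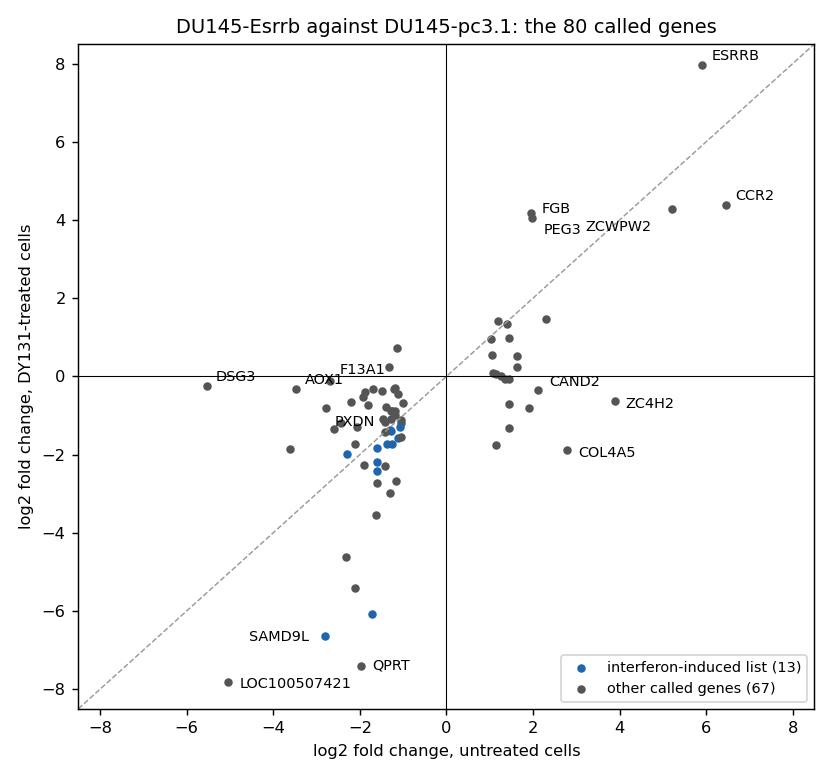
Log2 fold change of DU145-Esrrb against DU145-pc3.1 for the 80 genes called in untreated cells, in untreated (horizontal) and DY131-treated cells (vertical), with the line of equal values dashed. The 13 interferon-induced genes (blue) lie in the lower left, DSG3, AOX1 and F13A1 near 0 on the vertical axis, and COL4A5 in the lower right.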

How the data were processed

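RNA of the 8 samples was sequenced as 50-base single reads from stranded mRNA libraries in 1 lane. After trimming (FASTX-Toolkit) and mapping to hg18 (TopHat2), the authors counted reads per gene with their program MULTICOM-MAP and deposited these raw counts. The labels' processing notes also name edgeR. The deposited counts were whole numbers, 28 symbols had become dates, and the use of strand is not given in the sources used here. Columns were matched to samples by name, and both columns of treated DU145-Esrrb carry 1 heading.

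Counts were tested with R 4.3.3 and edgeR 4.0.16: TMM scaling, 1 quasi-likelihood model of 4 groups over 8 libraries, and Benjamini-Hochberg adjustment over 13856 genes. Values in cpm use effective library sizes, and summed levels of lists use all counted reads. An SE is the log2 fold change divided by the root of F. DESeq2 1.42.0 was an alternative. Genes were placed by GENCODE 29 (GRCh38), by RefSeq identifier for 13193 and by symbol for 413, with 250 unmatched. The steps were tested on simulated counts.

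ESRRB and ESRRG were to be named first, then called genes, those of the study's qPCR, the 15 largest rises and falls, and list members. Members and lists were chosen with earlier results of these data known. Alternatives by chromosome were chosen after seeing the data.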

Additional observations from a re-analysis of the deposited data

Results flagged for a closer look

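For 24 of the 80 called genes the Esrrb difference itself differed between untreated and DY131-treated cells, by the interaction term of edgeR's quasi-likelihood model at an adjusted p under 0.05 and a size of at least 1 on the log2 scale. Of all 13856 tested genes, 870 (6.28%) passed the same rule. Among the 24 the difference was smaller under DY131 or turned in 18 and larger in 6, but these genes were chosen for a large untreated difference, which by itself favours a smaller one in the second pair. The interaction is the treated minus the untreated log2 fold change. It was positive for DSG3 (5.29), AOX1 (3.16), F13A1 (2.55), PXDN (1.98), BMF (1.87), CXCR4 (1.56) and SPNS2 (1.38), which were lower in untreated DU145-Esrrb, and for FGB (2.23) and PEG3 (2.06), which were higher. It was negative for genes that were higher in untreated DU145-Esrrb: COL4A5 (-4.68), ZC4H2 (-4.52), LOC441454 (-2.90), CDHR1 (-2.77), TKTL1 (-2.71), CAND2 (-2.46), SH3RF3 (-2.16), SDC2 (-1.51), DUOX1 (-1.41), SEMA3F (-1.26) and SMOC1 (-1.09). It was also negative for lower genes that differed more under DY131: QPRT (-5.45), ARSD (-3.30), IGFBP3 (-1.68) and INA (-1.5). The fitted values of QPRT and ARSD rest on treated DU145-Esrrb libraries with 0 counts in at least 1 of them, and so depend on the prior count of the fit. In 8 of the 24 the libraries of the pools were apart in opposite directions in untreated and treated cells. How many of all tested genes did so was not counted. Choosing genes by a large interaction favours opposite directions, so the 8 cannot be read as a result about them.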

How the results depend on the processing

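The 80 calls became 105 under edgeR's exact test, 48 under DESeq2, 60 with at least 10 counts in every library compared, 117 with only the 4 libraries compared and 46 to 51 without 1 replicate at a time, where the lone library of a pool is assumed to vary like the others. Without a fold threshold there were 579 calls, at 1.5-fold there were 190 and at an absolute log2 fold change of 2 there were 22. The replicate block gave 66 calls against 68 with no replicate block in the 6 numbered libraries. The replicate numbers are those of the sample titles, and the table's column names number the same libraries otherwise (the DU145-Esrrb columns as 2 and 3, the control columns as 1 and 3). The deviations from the group mean of the 2 untreated libraries with title number 1 had a correlation of 0.0917 over genes. With 2 libraries a group, those with number 2 give the same value, so it is 1 comparison. The numbers were not taken to pair the libraries. Called interferon-induced genes numbered 8 under DESeq2 and 6 to 14 without 1 replicate.

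With at least 10 counts in every library, the DY131-treated pair gave 730 calls in place of 1137, and 21 in place of 42 genes were called in the same direction in both pairs. The chromosome 5 median relative to other genes was -0.23, and -0.24 with that filter and -0.24 to -0.22 without 1 replicate. Leaving out chromosome 5 genes gave 70 calls. Of the 80 genes, 33 (9 higher, 24 lower) were called in every alternative that tested them, 47 lost the call in at least 1, and 0 changed direction in the alternatives run with edgeR and DESeq2. At this depth genes under about 1 cpm rest on about 10 counts or fewer, and 36 of the calls had means under 5 cpm. The cause of these changes was not tested.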
